A study of Bos taurus with 27 samples.

Results

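Short embryos from dams fed an omega-6 diet were compared by size: 5 small embryos with size numbers of 2.1 to 2.5 (2.34 ± 0.167, SD) against 4 mid-sized embryos with size numbers of 4.5 to 7.7 (5.53 ± 1.47, SD). The members were chosen by the number that opens each title, whose unit the labels do not state. They are 9 of the 27 cattle (Bos taurus) embryos analysed in the series, and 9 of its 11 omega-6 embryos. The other 2, numbers 22 (size 3.7) and 25 (size 1.4), were left out because their libraries stand apart from the rest. Their values are given beside the results for some genes only, and not for the most abundant ones. All samples are labelled as embryos of day 15 of pregnancy, with 1 RNA-seq library each, and whether whole embryos were used is not stated. The small embryos are numbers 20 (size 2.1), 18 and 19 (2.3) and 21 and 30 (2.5), with the letter m, read as male, on 18 and 21 and f, read as female, on the other three. The mid-sized embryos are numbers 24 (4.5), 28 (4.9), 23 (5) and 26 (7.7), with m on 24 and 23 and f on 28 and 26. Every one of the 9 is classed as short, so the groups share diet, day and class. The most similar embryos of the other diet were 3 small (1.3 to 2.6) and 6 mid-sized (4.4 to 9.5) omega-3 embryos, and 6 long omega-3 embryos (10.5 to 20.3) completed the model. Dams are not named, so embryos may share a dam and the p-values cover only how much these embryos vary.

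In cattle the embryo hatches from its zona, stays free in the uterus and then lengthens from a sphere through an ovoid and a tube to a filament. The outer layer, the trophectoderm, makes up most of the lengthening tissue. It secretes interferon tau, the signal by which the cow recognises pregnancy, while the inner hypoblast lines it and the embryonic disc stays small. Bulk RNA can mix these layers, so more cells of a type and more RNA per cell cannot be told apart. The deposited files give Ensembl gene identifiers with no names, and none of the 19994 identifiers could be paired with a symbol in the RefSeq table used here. Genes are therefore described by identifier or by rank, without functions, and the layers could not be checked by their markers.

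Total counts of the 9 libraries ran from 17931620 to 28560043, with means of 23689400 ± 4164070 (SD, n = 5) in small and 24361600 ± 2677540 (SD, n = 4) in mid-sized embryos, which did not differ by a two-sided exact permutation test (p = 0.802, adjusted 0.802 over 3 measures). All 19994 genes were searched for a split by the letters, and 2 stood above 10 CPM (counts per 1 M counted reads) in all 4 m embryos and below 1 CPM in all 5 f embryos. The reverse split was not counted and these genes were found by the letters, so this is no independent check of the letters. That search used CPM without TMM scaling. All other printed CPM used edgeR's TMM scaling over all embryos, so each change is relative to the other genes.

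Few genes separated the sizes. With edgeR's quasi-likelihood test on 24 embryos (5 groups and the sex letter), 7 of 12177 genes were called at an adjusted p below 0.05, which is 0.0575% of those tested. Of these, 6 (0.0493% of those tested) were higher in mid-sized embryos, by 2.15-fold to 6.57-fold, and 1 (0.00821%) was lower. All 6 upward genes had CPM ranges that did not overlap between the 5 small and the 4 mid-sized embryos, a pattern that 240 genes showed in all (1.97% of those tested, 119 higher and 121 lower in mid-sized embryos). The count depended on the embryos fitted and on the model. As 2 classes, 0 genes were called by edgeR in the 9 omega-6 embryos alone (792 at an unadjusted p below 0.05) and 0 in the 18 short embryos (1083 unadjusted). A slope on log2 size in the same 9 embryos called 10 genes, 4 of them shared with the 7. DESeq2 on the 24 embryos called 45 and limma-voom 1. Leaving out single embryos gave 3 calls without 18, 1 without 19, 3 without 20, 20 without 21, 2 without 23, 11 without 24, 1 without 26, 3 without 28 and 3 without 30. Adding embryo 25 to the small and 22 to the mid-sized group gave 7 calls, 4 of them shared with the 7.

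The largest rise was that of ENSBTAG00000019368. In small embryos it measured 0.547 CPM in embryo 20, 0.587 in 30, 1.08 in 19, 1.10 in 18 and 2.89 in 21. In mid-sized embryos it measured 5.45 CPM in embryo 24, 7.36 in 28, 7.83 in 23 and 10.98 in 26. Embryo 21 was the highest of the small embryos and the largest embryo, 26, the highest of the mid-sized ones, with a gap between the groups. The group means were 1.24 ± 0.958 (SD, n = 5) and 7.91 ± 2.29 CPM (SD, n = 4), a 6.57-fold rise (log2 fold change 2.72 ± 0.42, SE, edgeR adjusted p = 0.0103). Embryos 22 and 25 held 10.4 and 5.87 CPM, so that 25, although smaller than any of the 9, lay in the mid-sized range. With these embryos added the call ended (log2 fold change 2.06, adjusted p = 0.139), as it did without 19 (2.70, 0.0608) or 26 (2.45, 0.0723), as 2 classes in the 9 embryos alone (2.74, 0.137), in the 18 short embryos (2.74, 0.08) and with limma-voom (2.84, 0.174). As a slope on log2 size in the 9 embryos it was called (2.24 per doubling, adjusted p = 0.028).

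ENSBTAG00000020638 was next by size of the rise. Its small embryos measured 0.657 CPM in embryo 20, 0.917 in 30, 0.955 in 19, 2.06 in 18 and 2.71 in 21, and its mid-sized embryos 5.05 CPM in 24, 6.78 in 23, 8.37 in 26 and 8.53 in 28. Embryos 21 and 18 were again the highest small embryos and 24 the lowest mid-sized one, and the groups stayed apart. The means of 1.46 ± 0.884 (SD, n = 5) and 7.18 ± 1.63 CPM (SD, n = 4) differed 4.99-fold (2.32 ± 0.43, SE, edgeR adjusted p = 0.0366). This call was less secure than that of the first gene. It held without embryo 21 or 24 and ended when any of the other 7 omega-6 embryos was left out (adjusted p = 0.0664 to 0.193, log2 fold change 2.14 to 2.46), and without the long omega-3 embryo 07 (0.0567). As 2 classes in the 9 embryos alone its adjusted p was 0.137, in the 18 short embryos 0.166 and with limma-voom 0.271. It was called as a slope on log2 size in the 9 embryos (1.93 per doubling, adjusted p = 0.0303) and with embryos 22 and 25 added (2.33, 0.0386). Embryos 25 and 22 held 0.464 and 3.64 CPM, in the order of their size numbers.

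The other 4 upward genes are given by their rank in fold change. The gene ranked 4 was the only one of the 7 with a high level. It measured 30.3, 42.6, 81.6, 87.9 and 88.5 CPM in small embryos 20, 30, 19, 21 and 18, and 235, 259.8, 273 and 298 CPM in mid-sized embryos 24, 23, 28 and 26. The lowest mid-sized embryo thus stood well above the highest small one. Its means of 66.2 ± 27.6 (SD, n = 5) and 266 ± 26.1 CPM (SD, n = 4) differed 4.03-fold (2.01 ± 0.30, SE, edgeR adjusted p = 0.00937). It was called whichever of the 9 embryos was left out (log2 fold change 1.81 to 2.16, highest adjusted p = 0.0493), with embryos 22 and 25 added (2.06, adjusted p = 0.00419), with DESeq2 and with limma-voom (adjusted p = 0.00395), but not as 2 classes in the 9 embryos alone (2.03, 0.137) or in the 18 short embryos (2.01, 0.0632). As a slope on log2 size in the 9 embryos it was called (1.61 per doubling, adjusted p = 0.0303). The smallest omega-3 embryo, number 14 (size 0.4), held 2.16 CPM of it. Against the order of size, embryo 22 held 460 CPM of this gene, above every mid-sized embryo of the 9, although it is smaller than these. Likewise embryo 25, although smaller than any of the 9, held 113 CPM, above every small embryo and below every mid-sized one.

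The remaining 3 were scarce transcripts. The gene ranked 3 ran from 0.954 to 3.60 CPM in small and from 6.59 to 11.5 CPM in mid-sized embryos (4.17-fold, 2.06 ± 0.36, SE, edgeR adjusted p = 0.0214). The gene ranked 5 ran from 0.789 to 2.67 and from 4.10 to 5.66 CPM (2.81-fold, 1.49 ± 0.26, SE, adjusted p = 0.0214). The gene ranked 6 ran from 1.95 to 3.08 and from 4.45 to 5.47 CPM (2.15-fold, 1.11 ± 0.20, SE, adjusted p = 0.0273). Counts behind these ranges were at least 19 in each of the 9 embryos. Their calls held in 2, 2 and 3 of the 9 omissions of a single embryo, and the log2 fold changes in these omissions ran from 1.79 to 2.35, 1.31 to 1.67 and 1.05 to 1.25. Embryo 22 held 31.8 CPM of the gene ranked 3 and 12.4 CPM of the gene ranked 6, above every mid-sized omega-6 embryo, and 0.572 CPM of the gene ranked 5, below every small one. Embryo 25, although smaller than any of the 9, held 7.22 CPM of the gene ranked 6, above every mid-sized embryo. Of the gene ranked 3 it held 4.31 CPM, between the groups, and of the gene ranked 5 it held 1.73 CPM, in the small range. With 22 and 25 added, the calls of the genes ranked 5 and 6 ended (adjusted p = 0.318 and 0.411).

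**Figure D1:**
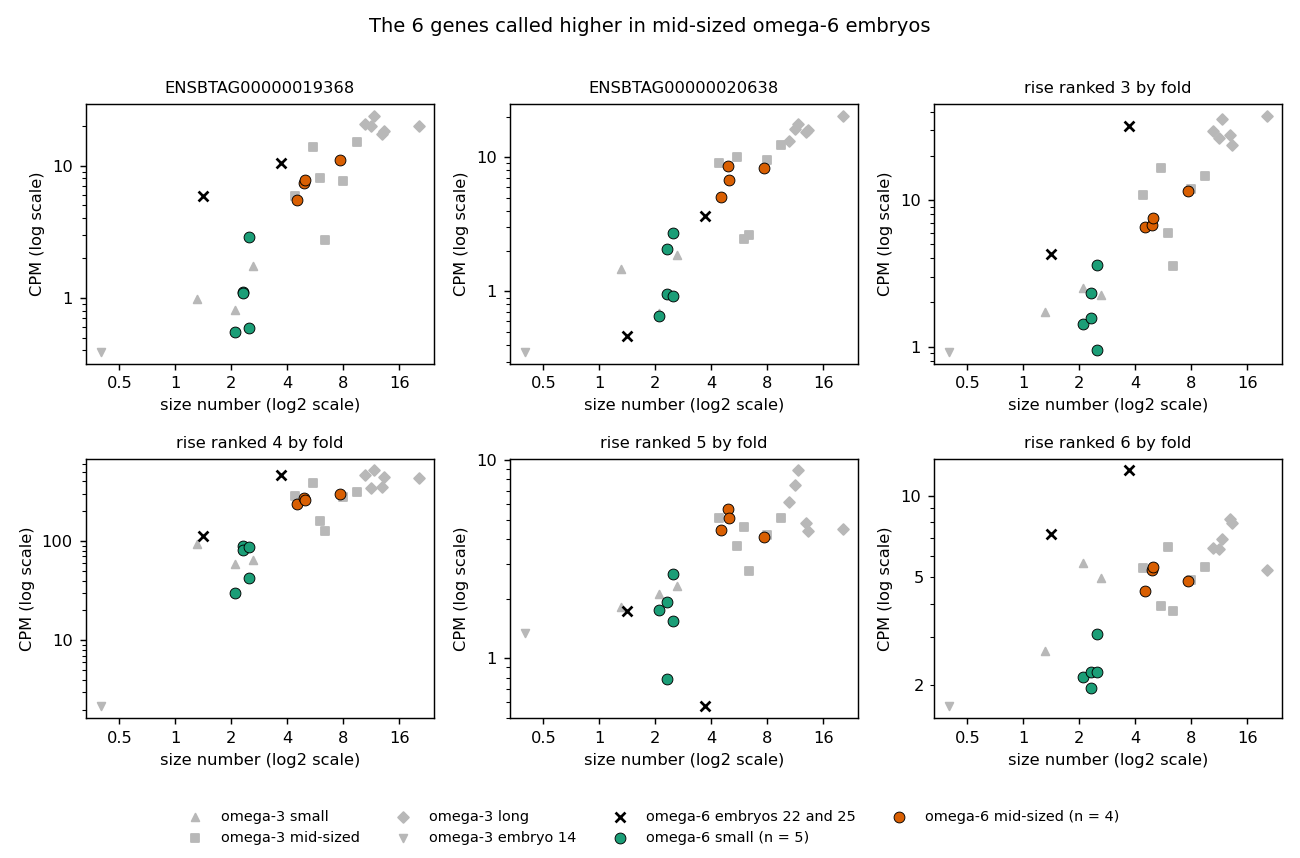
CPM (vertical, log scale) of the 6 genes called higher in mid-sized than in small omega-6 embryos against the size number (horizontal, log2 scale), 1 point an embryo. The 4 mid-sized embryos (orange) lie above all 5 small ones (green) in each panel, for the first gene at 5.45 to 10.98 against 0.547 to 2.89 CPM, while the omega-6 embryos 22 and 25 (crosses) scatter and the omega-3 embryos are drawn in grey.

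In most of these 6 genes, which were called on these same values, the same embryos bordered the gap between the groups. Embryo 21 was the highest small embryo in 4 of the 6 upward genes, and embryo 24, the smallest of the mid-sized group, the lowest mid-sized embryo in 5 of them. Embryo 26, the largest, was the highest mid-sized embryo in 3, embryo 28 in 2 and embryo 23 in 1. Embryo 22 lay within or above the mid-sized range in 4 of the 6 and embryo 25 in 2. In 4 of the 6 genes every long omega-3 embryo lay above every mid-sized omega-6 embryo, although those embryos differ in diet as well as in size. All these counts cover the 6 called genes only, without a share over all tested genes, so how usual they are is not known.

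The single gene called lower in mid-sized embryos, ENSBTAG00000046531, was read in only part of the small group. It measured 13.3 CPM in embryo 30 (363 counts), 10.2 in 21 (229 counts) and 7.35 in 19 (177 counts), but 0.109 CPM in 20 (2 counts) and 0.0333 in 18 (1 count). The mid-sized embryos held 0.0909 CPM in 24, 0.0378 in 28 and no count in 23 or 26. The groups therefore overlapped, and 3 of the 5 small embryos carried the difference. Summed over embryos there were 772 counts in small and 3 in mid-sized embryos, a 206-fold ratio per counted read with a 95% exact binomial interval of 70.3 to 1002, which covers counting error only and not the spread between embryos. The fitted log2 fold change of -7.40 ± 1.27 (SE, edgeR adjusted p = 0.0214) depends on the prior count. Outside the 9 embryos the gene was high in the smallest omega-3 embryo, number 14 (7.54 CPM), and at 0.0 to 0.127 CPM in the 15 other omega-3 embryos, while embryos 22 and 25 held 0.208 and 0.211 CPM. The letters of the 4 embryos with high values were m on 21 and 14 and f on 19 and 30. Without embryo 19, 21 or 30 the gene did not pass the filter on low counts, so it passed only through the 3 embryos in which it is high. In the 9 embryos alone, as 2 classes or as a slope, it did not pass the filter either. Without 23, 26 or 28 its call ended (adjusted p = 0.0788, 0.14 and 0.104), and limma-voom gave 0.509.

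No further gene was called downward. Since no called downward gene had groups that do not overlap, both places were filled by the lowest p. ENSBTAG00000008544 measured 9.999 CPM in embryo 21, 10.7 in 18, 10.9 in 30, 11.3 in 20 and 14.4 in 19, against 6.72 CPM in 28, 7.10 in 26, 7.50 in 24 and 8.58 in 23. The groups did not overlap, and embryo 19 stood above the other small embryos. The means were 11.5 ± 1.71 (SD, n = 5) and 7.47 ± 0.803 CPM (SD, n = 4), and the log2 fold change was -0.60 ± 0.12 (SE, 95% interval -0.85 to -0.34), which did not pass edgeR's test (adjusted p = 0.078). It passed with DESeq2 (0.00165), without the sex letter (0.0486), without embryo 21 (0.0423) and with embryos 22 and 25 added (0.0434). Embryo 25 held 10.8 CPM, within the range of the small embryos. Against the order of size, embryo 22 held 5.26 CPM, below every mid-sized embryo, although it is smaller than these. The omega-3 embryos showed the same step, with 14.4, 12.3 and 11.3 CPM in small embryos 13, 05 and 12 and 7.11 to 9.55 CPM in the 6 mid-sized ones (median 8.37; log2 fold change -0.61 ± 0.12, SE, adjusted p = 0.0198). That call had the same size, and the difference between the diets was 0.02 (95% interval -0.35 to 0.38).

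**Figure D2:**
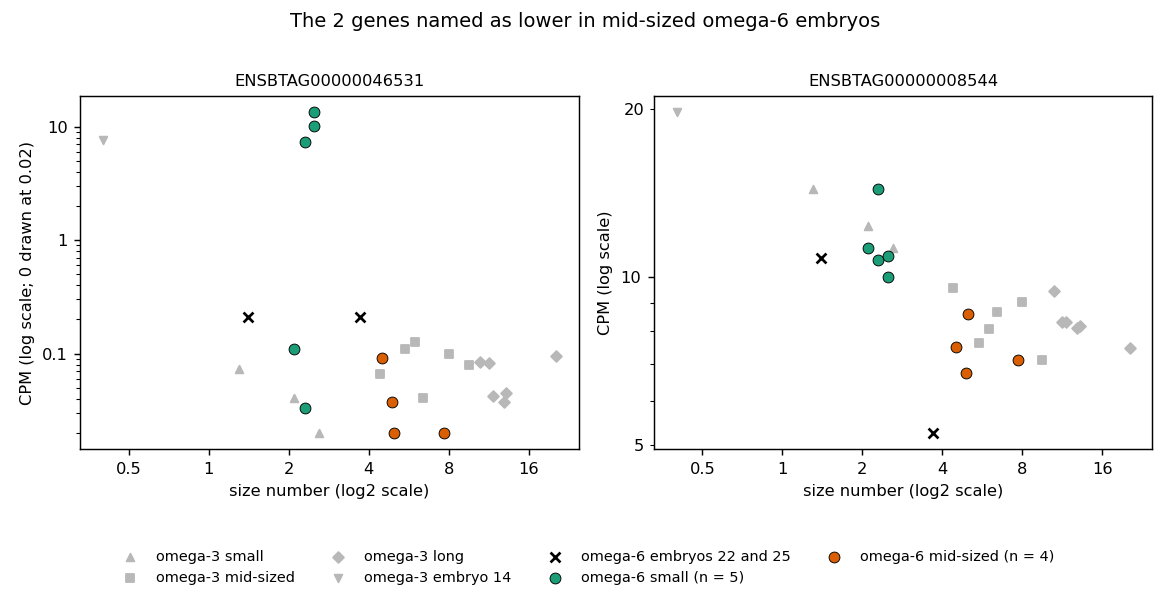
CPM (vertical, log scale, with 0 drawn at 0.02 in the left panel) of the 2 genes named as lower in mid-sized omega-6 embryos, against the size number (horizontal, log2 scale), 1 point an embryo. On the left 3 small omega-6 embryos and the omega-3 embryo 14 lie at 7.35 to 13.3 CPM and all others at 0.211 CPM or below, and on the right the 5 small embryos (9.999 to 14.4 CPM) lie above the 4 mid-sized ones (6.72 to 8.58 CPM).

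The most abundant transcripts were described by their rank in mean CPM over the 9 embryos, and none of the first 10 was called by the edgeR test. The gene ranked 1 held 44646, 49562, 52298, 54146 and 56933 CPM in small embryos 18, 30, 19, 20 and 21, and 55068, 56712, 58449 and 60537 CPM in mid-sized embryos 28, 26, 23 and 24. Only the small embryo 21 reached into the mid-sized range. The log2 fold change was 0.16 ± 0.08 (SE, 95% interval -0.01 to 0.33, adjusted p = 0.539).

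The genes ranked 2 and 4 showed the widest spread. The gene ranked 2 held 11991, 12551, 16088, 16863 and 31383 CPM in small embryos 18, 20, 30, 19 and 21, and 17358, 22613, 28195 and 28805 CPM in mid-sized embryos 24, 23, 28 and 26. The gene ranked 4 held 2880.5, 5014, 5225, 7911 and 20499.6 CPM in small embryos 18, 19, 20, 30 and 21, and 6707, 15392, 16590.3 and 31259.5 CPM in mid-sized embryos 24, 28, 23 and 26. In both genes embryo 21 had a level within or above the mid-sized range, and in the gene ranked 4 embryo 24 lay among the small embryos. The log2 fold changes were 0.47 ± 0.21 and 1.16 ± 0.42 (SE, edgeR adjusted p = 0.513 and 0.412), with 95% intervals of 0.03 to 0.91 and 0.29 to 2.02 before adjustment for the number of genes.

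The gene ranked 3 held 9030.0 to 16515 CPM in small and 8278 to 14073 CPM in mid-sized embryos (log2 fold change -0.28, 95% interval -0.64 to 0.08). Embryo 21 was its lowest small embryo. The genes ranked 5 to 10 had log2 fold changes between 0.02 and 0.12, with 95% intervals reaching no further than -0.24 and 0.36. Their levels overlapped throughout. For the gene ranked 5, embryo 26 with 14103 CPM stood apart from the 3 other mid-sized embryos (10804 to 10926 CPM), and for the gene ranked 6 it held 13906 CPM against 10215 to 10533 CPM.

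**Figure D3:**
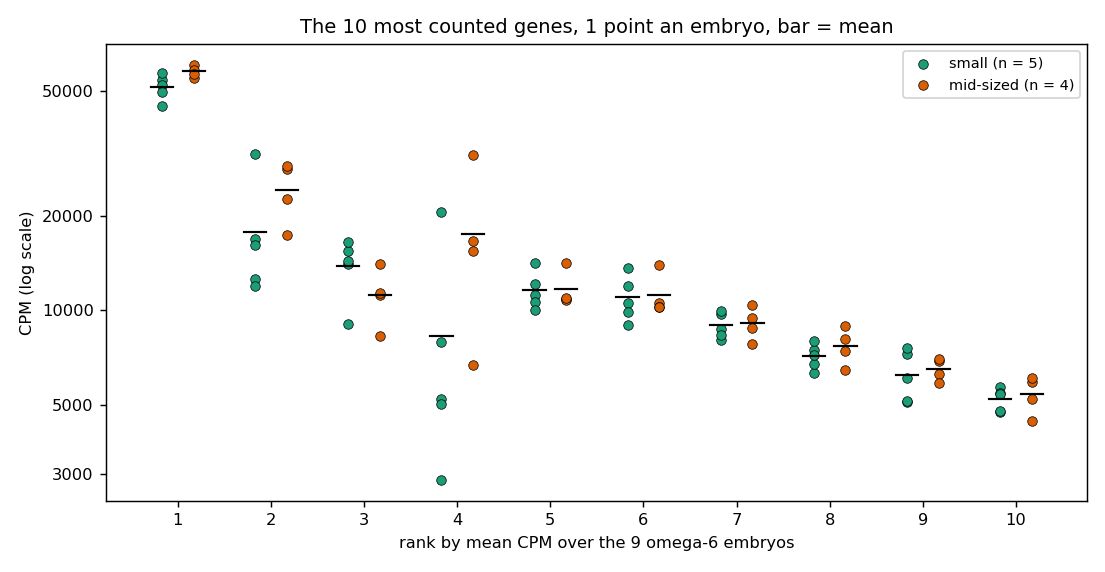
CPM (vertical, log scale) of the 10 most counted genes, by rank in mean CPM over the 9 omega-6 embryos (horizontal). Each point is an embryo, small in green and mid-sized in orange, and the bar is the group mean. The genes ranked 2 and 4 spread most, with 1 small embryo, number 21, above the mid-sized ones in the first (31383 CPM) and among them in the second (20499.6 CPM).

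The share of all counts taken by each embryo's own 10 most counted genes showed the same placing of embryo 21. It was 13.9% in embryo 18, 13.96% in 30, 14.4% in 19 and 20 and 16.7% in 21, and 14.9% in embryo 24, 16.1% in 23, 16.2% in 28 and 18.3% in 26. The 4 other small embryos lay below every mid-sized embryo. The difference of 1.69 percentage points (14.7 ± 1.15, SD, n = 5, against 16.4 ± 1.42, SD, n = 4) did not pass a two-sided exact permutation test (p = 0.103, adjusted 0.31 over 3 measures), and the smallest p that the 126 splits allow is 0.00794. Without embryo 21, the only small embryo in the mid-sized range, the difference was 2.19 points. Its exact p of 0.0286 is the lowest that 4 against 4 embryos allow and followed from leaving out this embryo. Without embryo 26 the difference was 1.03 points (exact p = 0.25). After thinning to 17931620 counts, 13841 ± 196 genes (SD, n = 5) had at least 1 count in small and 13811 ± 81.3 (SD, n = 4) in mid-sized embryos (exact p = 0.778, adjusted 0.802). Genes read in every embryo of one group and in none of the other were almost absent. There were 4 that were read in all mid-sized embryos alone, with at most 3 counts in an embryo, and 1 in all small embryos alone, with at most 5.

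Over all genes the sizes lay close together. The first principal component of log2 CPM held 23.1% of the variance of the 9 embryos. Embryos 26 and 23 stood at one end (35.0 and 27.9) and small embryos 20 and 30 at the other (-35.1 and -31.9), while mid-sized embryos 24 (1.83) and 28 (-1.73) lay between small embryos 21 (10.7), 18 (0.929) and 19 (-7.73). The mean distance between embryos of different groups (69.5 over 20 pairs) was close to that within the small (70.0, 10 pairs) and the mid-sized group (65.8, 6 pairs). The median size of a change was 0.13 log2 units (1.10-fold), with a median SE of 0.15. At an unadjusted p below 0.05 there were 1148 genes (9.43%), 608 higher and 540 lower in mid-sized embryos. The 95% interval of the change lay within 2-fold either way for 10037 genes (82.4%).

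The precision depended on the level. When the 12177 genes were ranked by mean CPM and split into 3 classes of 4059, the median SE was 0.10 in the most counted class (38.6 CPM and above), 0.14 in the middle class and 0.32 in the least counted class (below 7.35 CPM). Intervals lay within 2-fold for 97.9%, 94.6% and 54.7% of these classes. The calls were unevenly placed, with 6 of the 7 in the least counted class, 0 in the middle class and 1, the gene ranked 4 in fold change, in the most counted class. Genes at an unadjusted p below 0.05 by edgeR were not concentrated among the scarce ones. They numbered 232 higher and 199 lower in the most counted class, 220 and 172 in the middle class, and 156 and 169 in the least counted class. The interval thus reached past 2-fold for many of the scarce genes.

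**Figure D4:**
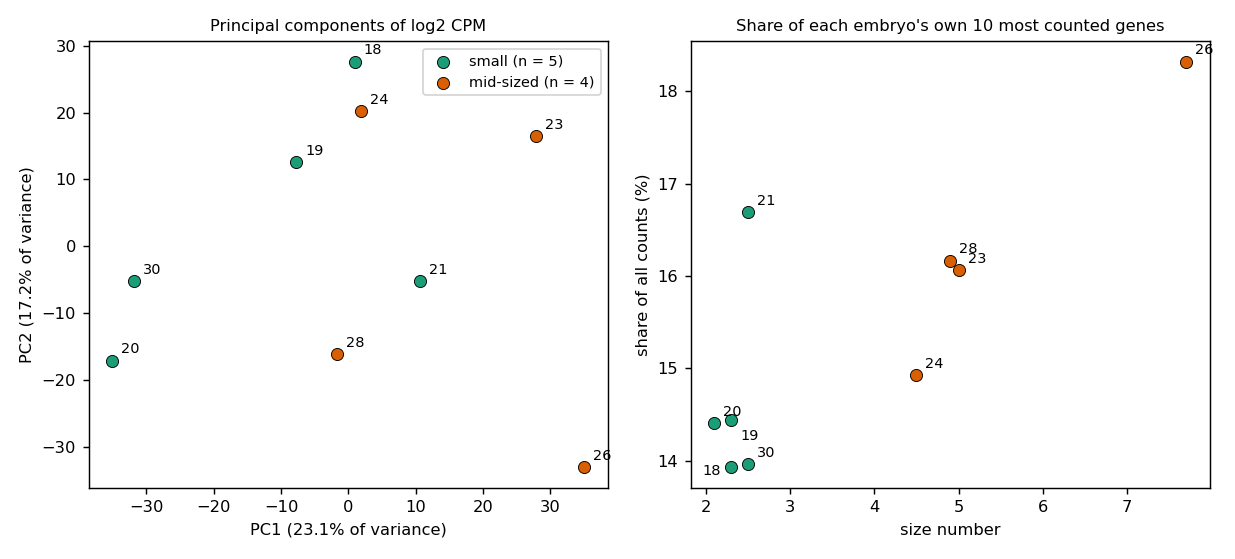
Left, the 9 omega-6 embryos on the first and second principal components of log2 CPM, with embryo numbers, small in green and mid-sized in orange. Right, the share of all counts (percent, vertical) taken by each embryo's own 10 most counted genes against the size number (horizontal), where embryo 21 (16.7%) lies apart from the 4 other small embryos (13.9% to 14.4%).

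Whether the omega-3 embryos showed the same step was asked in the same model, with no embryo in common. Both comparisons shared 1 estimate of the spread per gene, so their calls are not independent. Their size step was larger, at 1.74 doublings of the geometric mean size against 1.21 in omega-6. There 226 genes were called (1.86% of those tested), 111 higher and 115 lower in mid-sized embryos, and the count was unstable. It was 0 without small embryo 13 (1670 at an unadjusted p below 0.05), 4 without 05, 34 without mid-sized embryo 03, 42 without 02, 51 without 11, 68 without 08, 435 without small embryo 12, 450 without mid-sized embryo 17, and 1555 with the smallest embryo, 14, added. In the omega-6 embryos 210 of the 226 genes (92.9%) had the same sign, with a median change of 0.25 log2 units in the omega-3 direction, and 4 were called there. Over all tested genes 66.2% had the same sign, with a median of 0.07. Of the 82 called omega-3 genes that changed at least 2-fold, 80 had the same sign in omega-6, where their median change was 0.68 against 1.59 in omega-3. The genes were chosen on the omega-3 change, which raises the second of these medians.

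**Figure D5:**
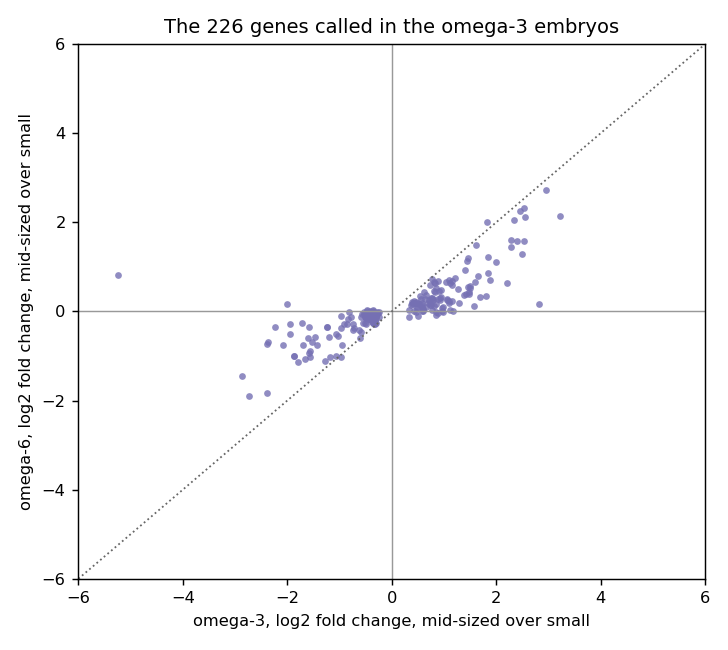
Log2 fold change, mid-sized over small, in omega-6 embryos (vertical) against omega-3 embryos (horizontal) for the 226 called omega-3 genes, 1 point a gene. The dotted line marks equal change, and 210 of the 226 genes have the same sign in both diets.

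The first 4 upward genes were called in both diets, but the omega-3 calls were not stable. Without small omega-3 embryo 13 no gene was called there, and without 05 only 1 upward gene was. In the 18 short embryos no upward gene was called in either diet. ENSBTAG00000019368 measured 0.807, 0.984 and 1.75 CPM in small omega-3 embryos 05, 13 and 12 and from 2.75 to 15.2 CPM in the 6 mid-sized ones (median 7.82), which is 2.94 ± 0.49 (SE, edgeR adjusted p = 0.013) on the log2 scale. ENSBTAG00000020638 measured 0.686, 1.46 and 1.87 CPM and from 2.46 to 12.4 CPM (median 9.26), which is 2.54 ± 0.50 (SE, adjusted p = 0.0179) on the log2 scale. Their changes in the 2 diets differed by -0.23 (95% interval -1.52 to 1.07) and -0.22 (-1.54 to 1.10). Mid-sized omega-3 embryo 17 (size 6.4) was low in both, at 2.75 and 2.63 CPM, and embryo 15 (size 6) was low in the second, at 2.46 CPM. The genes ranked 3 and 4 changed by 2.33 ± 0.41 and 1.83 ± 0.34 (SE) in omega-3 (adjusted p = 0.013 and 0.0142). The gene ranked 5 missed the threshold there (1.05 ± 0.28, SE, adjusted p = 0.0549). The gene ranked 6 had an omega-3 change of 0.20 ± 0.21 (SE, adjusted p = 0.633), since small omega-3 embryos 05 and 12 already held 5.65 and 4.97 CPM. The difference between its changes, 0.90 (95% interval 0.31 to 1.496), did not pass (adjusted p = 0.905).

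A test of the difference between the diets' size steps called 0 of 12177 genes with edgeR, with 655 (5.38%) at an unadjusted p below 0.05, 3 with DESeq2 and 0 with limma-voom. The intervals of the difference lay within 2-fold for 72.2% of genes. The difference was taken as the signed omega-6 change minus the signed omega-3 change. Where it was positive, the lowest p belonged to ENSBTAG00000032642 and ENSBTAG00000009638. The first gave a difference of 6.06 ± 1.12 (SE, edgeR adjusted p = 0.237) that came from small omega-3 embryos 13 and 12 (42.4 and 59.1 CPM), with 0.249 to 1.86 CPM in all 9 omega-6 embryos. It passed with DESeq2 (0.00494) and without omega-3 embryo 05 (0.0017) or 11 (0.0179). The second held 107 to 138 CPM in the 9 omega-6 embryos, with overlapping groups, and 126 to 164 CPM in small against 84.6 to 117 CPM in mid-sized omega-3 embryos (difference 0.51 ± 0.14, SE, adjusted p = 0.905).

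Where the signed difference was negative, the lowest p belonged to ENSBTAG00000005791 and ENSBTAG00000006595. The first measured 7.12 CPM in embryo 18, 7.89 in 19, 8.00 in 21, 11.7 in 20 and 11.8 in 30, against 4.76 CPM in 23, 5.68 in 24, 6.08 in 28 and 6.44 in 26. The groups did not overlap, and the change on the log2 scale was -0.64 ± 0.14 (SE, edgeR adjusted p = 0.136). In omega-3 embryos it measured 5.61 to 7.80 CPM in small and 6.71 to 9.88 CPM in mid-sized embryos, a change of 0.31 ± 0.15 (SE, adjusted p = 0.237). The difference of -0.95 ± 0.20 (SE) did not pass with edgeR (adjusted p = 0.682) and passed with DESeq2 (0.0319). Embryos 22 and 25 held 10.5 and 15.5 CPM of it, above the mid-sized omega-6 range. The second stood at 0.225 to 0.711 CPM in the 9 omega-6 embryos, with 5 to 19 counts, and its difference of -1.82 ± 0.45 (SE) did not pass (adjusted p = 0.905).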

How the data were processed

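RNA of single day 15 cattle embryos was sequenced from stranded poly(A) libraries (single reads of 100 bp, per the labels' protocols). Per the submitters' processing notes, STAR and featureCounts were used, in unnamed versions. Build, annotation and strand setting were not given in the sources used here, so reads of overlapping or antisense genes may be mixed. No batch is named in the labels. The authors deposited whole-number read counts per Ensembl gene, not normalised, for 19994 genes in 27 files. How reads of near-identical copies were counted is not stated. No 2 libraries were copies (lowest chi-square per degree of freedom 16.1 over 351 pairs).

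Groups follow diet and size number. The members and gene lists were chosen with earlier results of these data known. edgeR 4.0.16 in R 4.3.3 was run on 24 embryos (without 14, 22 and 25) with filterByExpr (minimum count 10, total 15, proportion 0.7), TMM scaling, group and sex letter (18 residual degrees of freedom), glmQLFTest, two-sided, and Benjamini-Hochberg adjustment over all genes. The code was also run on counts simulated from this fit's own coefficients and spread. Such counts follow the model by design, so they cannot show how well it holds for the real ones. The SE was derived from each F statistic. Printed CPM used TMM over 27 embryos, except in the search by sex letter, and log2 CPM a prior count of 2. Named genes were, in each direction, the 2 largest called changes whose groups do not overlap (mean CPM at least 1), with places left empty filled by lowest p whether or not the groups overlap (both downward places), and the 2 lowest p for the difference between diets. Alternatives used DESeq2 1.42.0, limma 3.58.1 (voom, quality weights), RLE scaling, no filter, no sex letter, subsets, a slope on log2 size and omission of single embryos. The 18 short embryos alone, and omission of omega-3 embryos for the omega-6 comparison, were chosen after seeing the data. The gene lists by symbol could not be applied, since 0 identifiers matched.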

Additional observations from a re-analysis of the deposited data

Results flagged for a closer look

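Of 66 sets of 4 to 6 embryos tested for a single far value, 8 held one. The limit flags about 1 in 20 only where values are independent and normally distributed. Many sets share libraries, so no excess over chance can be read from these 8. Embryo 21 was far above the 4 other small omega-6 embryos in 4 of these: 2.89 CPM of ENSBTAG00000019368 (others 0.547 to 1.10), 31383 CPM of the gene ranked 2 by level (others 11991 to 16863), 20499.6 CPM of the gene ranked 4 (others 2880.5 to 7911) and 16.7% of counts in its own 10 most counted genes (others 13.9% to 14.4%). These 4 measures share a library and the last includes both ranked genes. Embryo 30 was far above the other small embryos in the called gene ranked 6 by fold (3.08 CPM, others 1.95 to 2.23), and embryo 19 in ENSBTAG00000008544 (14.4 CPM, others 9.999 to 11.3). Among mid-sized embryos, 26 was far above the others in the genes ranked 5 and 6 by level (14103 CPM against 10804 to 10926, and 13906 CPM against 10215 to 10533).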

How the results depend on the processing

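No paired analysis was possible because dams are not named, so embryos that share a dam cannot be recognised. The 7 omega-6 calls became 45 with DESeq2, 1 with limma-voom, 0 in the 9 embryos alone, 0 in the 18 short embryos and 1 to 20 when a single embryo was left out; with RLE scaling, no filter, no sex letter, embryos 22 and 25 added, a slope on log2 size or without embryo 07 they numbered 6 to 10. The 226 omega-3 calls became 799 with DESeq2, 593 with limma-voom, 1555 with embryo 14 added, 1 in the 18 short embryos and 0 to 450 when a single embryo was left out. The 0 calls for the difference between diets became 3 with DESeq2 and 0 to 1 when a single embryo was left out. Leaving out single embryos moved the difference in the share of the 10 most counted genes between 1.03 and 2.19 percentage points (largest without 21). The exact p without 21, 0.0286, is the lowest possible for the embryos left. The difference in genes detected moved between -98.75 and 28.25 (28.25 without 20 and 6.47 without 26, where it turned upward). That in total counts moved between -767224 and 1889880 (-767224 without 20 and -233484 without 28, where it turned downward). The cause was not tested. No named gene changed direction in any setting in which it was fitted.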
